A study of Mus musculus with 3 samples.

Results

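The data are single-cell RNA counts of macrophages sorted from mouse quadriceps muscle 1 week after surgical removal of a volume of the muscle. The comparison described here sets cells from wounds that received polycaprolactone (PCL), a synthetic polyester used as an implant material, against cells from wounds that received saline only. The members are the PCL and saline cells of those clusters in the authors' deposited annotation that hold at least 50 cells of each library. These are F1 with 455 PCL and 64 saline cells, FP1 with 1036 and 72, and RP3 with 92 and 68. Together they are 1787 of the 2094 cells of both libraries and of the 4374 cells in the series, in which 13242 genes were counted. A further library came from wounds filled with urinary bladder matrix (UBM), a decellularised tissue scaffold, and its values are printed only for context. Strain, sex, age and the number of animals per library are not stated in the labels, and both groups share the same surgery. Each condition is 1 library, so no test between conditions is possible, and no difference has a replicate check. Intervals are 95% and cover counting error only.

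Macrophages are phagocytes that arise from blood monocytes or live in the tissue, and after muscle injury they clear debris and steer repair. An implant that cannot be resorbed quickly is met by a foreign-body response, in which macrophages gather on the surface, may fuse and release matrix proteins, and a fibrous capsule forms. Oxygen shortage switches macrophages to glycolysis through hypoxia-inducible factors, while interferon raises their antigen-presentation genes. A change over all cells of such a library can arise inside each cluster or through a different mix of clusters, and the values below keep these apart.

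The labels of the clusters were checked against markers. Macrophage genes were present in all 6 sets of cells: Adgre1, which encodes F4/80, stood at 481 UMIs per 1000000 (CPM) in saline F1 and 335 in PCL F1, at 332 and 218 in FP1, and at 473 and 488 in RP3. RP3 carried the resident-macrophage genes Lyve1 (432 CPM in saline, 315 in PCL), Cd209d (149 and 107) and Cd209f (253 and 77.5), which were at no more than 6.95 CPM in F1 and FP1 of either library. F1 carried the monocyte gene Plac8 (461 CPM in saline and 1184 in PCL) and the interferon gene Isg15 (484 and 517). The FP1 cluster marker Cav1, a caveolar coat gene, was at 28.7 CPM in saline FP1 and 199 in PCL FP1. The authors clustered all 3 libraries together, and saline cells given to FP1 matched the FP1 profile of the UBM library less often than PCL cells did. The UBM cells came from wounds with a scaffold, so a poor cluster fit and a treatment difference inside FP1 cannot be told apart here. When each cell was matched to the mean profiles of the UBM clusters over 1000 genes, 15 of 72 saline FP1 cells (20.8%) went to FP1 and 29 to R3. Of the PCL FP1 cells, 838 of 1036 (80.9%) went to FP1. In F1 the figures were 36 of 64 saline and 374 of 455 PCL cells, and in RP3 68 of 68 and 85 of 92. The PCL library had 11006118 UMIs and the saline library 1888343, with medians per cell between 3980.5 and 6078 in the 6 sets. The saline totals were 351199 UMIs in F1, 488438 in FP1 and 268609 in RP3, so 3 UMIs, the limit used for a count of 0, stood for 8.54, 6.14 and 11.2 CPM. No cell barcode occurred in both libraries.

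The mix of clusters differed between the libraries. FP1 made up 59.1% of PCL cells (exact binomial interval 56.8 to 61.4%) and 21.1% of saline cells (16.9 to 25.8%). F1 held 26.0% of PCL cells (23.9 to 28.1%) and 18.8% of saline cells (14.8 to 23.3%). With 1 library a side, these intervals hold no spread between animals. RP3 held 5.25% (4.25 to 6.40%) against 19.9% (15.8 to 24.6%). R1 and R3 held 13.5% and 10.9% of saline cells and 0.799% and 0.913% of PCL cells. The 3 compared clusters thus covered 90.3% of the PCL cells and 59.8% of the saline cells.

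Ratios below are PCL over saline within a cluster. A gene was compared where its mean over the 2 libraries reached 25 CPM, and it was counted as higher or lower when the ratio passed 2-fold after 10 CPM had been added to each side, the scale of every log2 value here. In F1, 162 of 4238 genes were higher (3.82%) and 103 lower (2.43%). In FP1, 127 of 4328 were higher (2.93%) and 76 lower (1.76%). In RP3, 199 of 4480 were higher (4.44%) and 154 lower (3.44%). With only the cells whose cluster the UBM profiles also gave, 257 genes were higher in F1, and in FP1, then with 15 saline cells, 271 were higher and 289 lower. The median log2 ratio over all compared genes was 0.09 in F1, -0.01 in FP1 and 0.05 in RP3. Among the 3535 genes compared in all 3 clusters, 31 were higher in each of them (0.877%) and 5 were lower in each (0.141%). A further 47 were higher in exactly 2 clusters and 212 in exactly 1, with 30 and 114 on the lower side. The clusters share their 2 libraries, so free RNA and any difference in handling reach all 3 together, and a change seen in all 3 is not seen 3 times independently.

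The genes higher in all 3 clusters included secreted matrix factors and proteases, arginine and glucose metabolism, oxidative-stress enzymes, S100 and annexin proteins, lectin receptors and platelet chemokines. Spp1, which encodes osteopontin, a matrix-bound adhesion protein of wound macrophages, was at 142 CPM in saline F1 and 1665 in PCL F1, 2154 and 8918 in FP1, and 33.5 and 1347 in RP3. All PCL values lay above the saline value of their cluster, by 11.7-fold (interval 8.86 to 15.8), 4.14-fold (3.90 to 4.41) and 40.2-fold (21.1 to 88.3). In saline FP1 64% of the Spp1 UMIs came from 1 cell, and without the highest cell of each library the log2 ratio there was 3.45 in place of 2.04. Thbs1, the matricellular protein thrombospondin-1, went from 262 to 971 CPM in F1, from 262 to 813 in FP1 and from 33.5 to 272 in RP3. Mmp19, a matrix metalloproteinase, was at 28.5 and 187 CPM in F1, 55.3 and 527 in FP1, and 14.9 and 74.1 in RP3. Mmp12, the macrophage elastase, had 1 saline UMI in F1 and 1 in RP3 and stood at 99.7 and 68.9 CPM in PCL, with ratios of 35.0 (6.23 to 1387) and 18.5 (3.14 to 749). In FP1 it was at 471 and 1057 CPM.

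Arg1 encodes arginase, which turns arginine into ornithine. It had 2 UMIs in saline F1 (5.69 CPM) and 261 CPM in PCL F1, 106 and 1512 CPM in FP1, and 1 UMI (3.72 CPM) and 72.4 CPM in RP3. The ratios were 45.8 (12.6 to 379), 14.2 (10.8 to 19.0) and 19.4 (3.30 to 786). In the UBM library Arg1 was higher still, at 2550, 2949 and 931 CPM in the same 3 clusters. Hmox1, the haem-degrading enzyme, was at 162 and 884 CPM in F1, 111 and 1401 in FP1, and 674 and 1470 in RP3. Its ratio ran from 2.18 (1.86 to 2.57) in RP3 to 12.7 (9.70 to 16.9) in FP1. On a fold scale, though not in CPM, the saline clusters differed more from each other than the PCL clusters did. Slc16a3, a lactate exporter, was at 37.0 and 168 CPM in F1, 40.9 and 215 in FP1, and 11.2 (3 UMIs) and 53.4 in RP3. Pdpn, the mucin-like surface protein podoplanin, was at 2.85 (1 UMI) and 50.005 CPM in F1, 40.9 and 468 in FP1, and 7.45 (2 UMIs) and 60.3 in RP3. Rgcc, a regulator of the cell cycle, was at 28.5 and 129 CPM in F1, with 70% of the saline UMIs in 1 cell, and its ratio was 4.83 (3.48 to 6.91) in FP1 and 5.79 (1.44 to 50.4) in RP3.

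Anxa2, S100a6, S100a10 and S100a11, calcium-binding proteins of membranes and the cytoskeleton, were 2.04-fold to 3.37-fold higher in every cluster. Prdx1, a peroxide-reducing enzyme, was 2.49-fold higher in F1, 2.47-fold in FP1 and 3.44-fold in RP3. The lectin receptors Clec4n and Clec4d, which encode dectin-2 and the macrophage C-type lectin, were also among the 31. Clec4d was 9.08-fold higher in F1 (25.6 to 233 CPM), 2.14-fold in FP1 (250 to 534 CPM) and 12.3-fold in RP3 (22.3 to 276 CPM). Cd9, a tetraspanin of fusing and lipid-handling macrophages, was at 74.0 and 172 CPM in F1, 547 and 1263 in FP1, and 11.2 and 89.6 in RP3. Plac8 was highest in F1 in both libraries, and its ratio was 2.57 there, 6.46 in FP1 and 2.19 in RP3. The platelet chemokine gene Pf4, which macrophages also express, was at 1259 and 3771 CPM in F1, 1968 and 6367 in FP1, and 2911 and 6093 in RP3. Ppbp, another platelet chemokine gene, went from 31.3 to 227 CPM in F1 and from 20.5 to 379 in FP1. In saline RP3 Ppbp had no UMI, and its 55.1 CPM in PCL was 4.94-fold the 3-UMI saline limit. The platelet integrin gene Itga2b had no saline UMI in the 3 clusters and 0, 2 and 0 UMIs in PCL.

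**Figure D1:**
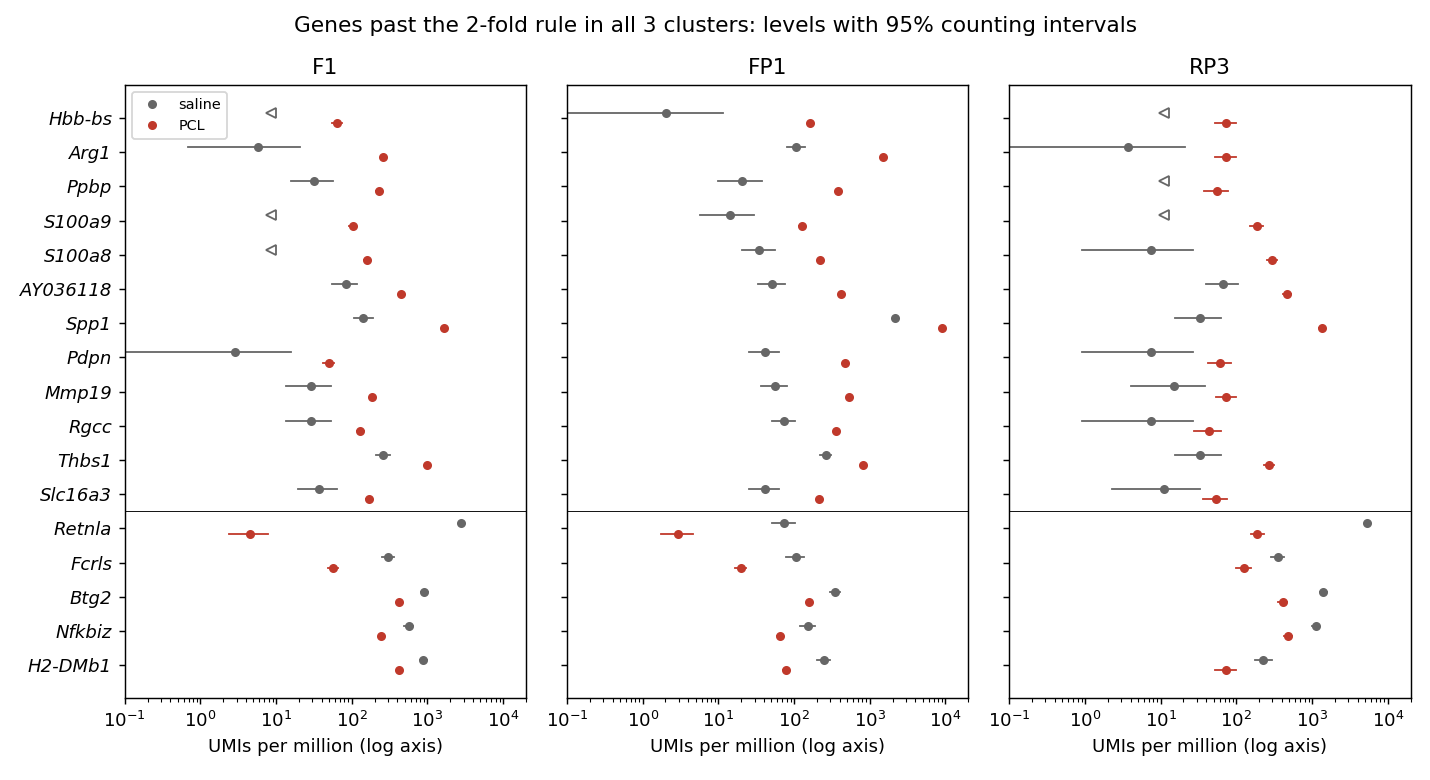
Level of each gene in CPM on a log axis in F1, FP1 and RP3, for saline (grey) and PCL (red), with lines for the 95% counting interval of 1 library. Open triangles mark the 3-UMI limit of a gene with no saline UMI. The 12 genes above the line are the shared higher genes with the largest smallest ratio and the 5 below it are the shared lower genes. PCL lies right of saline for the 12 higher genes and left of it for the 5 lower genes in each cluster, and saline levels differ between clusters, as for Spp1 at 33.5 CPM in RP3 and 2154 in FP1.

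Several of the 31 genes are known from other cells or from the ribosomal RNA locus. S100a8, a neutrophil marker gene, had no UMI in saline F1 and 159 CPM in PCL F1, which was 18.7-fold the 3-UMI saline limit. It was at 34.8 and 219 CPM in FP1, and at 7.45 (2 UMIs) and 293 CPM in RP3, where 51% of the PCL UMIs came from 1 cell. In the PCL library S100a8 lay between 108 and 320 CPM in all 7 clusters other than F2, and in F2, which had 8002 of its 10204 UMIs, it was at 32256 CPM. The number of S100a9 UMIs per S100a8 UMI was 0.645 (0.555 to 0.748) in F1, 0.576 (0.528 to 0.628) in FP1, 0.635 (0.494 to 0.813) in RP3 and 0.689 (0.665 to 0.713) in F2. In saline F2, of 3 cells, it was 0.107 (0.0713 to 0.155). Over the 12 neutrophil genes in the table the summed level went from 39.9 to 357 CPM in F1. It went from 119 to 424 CPM in FP1 and from 153 to 581 in RP3. S100a8 and S100a9 gave most of each PCL sum, with S100a9 at 103, 126 and 186 CPM. The other compared members had log2 ratios of 0.40 in F1 (Csf3r) and -0.39 in FP1 (Mmp9). In RP3 the ratios were -0.21 (Csf3r) and -2.24 (Mmp9). The higher sums thus do not show a rise of the whole list. Ly6g had no saline UMI in any of the 3 clusters. Hbb-bs, a beta-globin gene of red cells, had 0, 1 and 0 saline UMIs and stood at 64.2, 164 and 72.4 CPM in PCL. In PCL FP1 58% of its UMIs came from 1 cell, and in the other 7 PCL clusters it lay between 48.9 and 91.3 CPM. The summed level of 4 erythroid genes was 0 and 101 CPM in F1, 4.09 and 283 in FP1, and 0 and 121 in RP3. The part of free RNA or attached cells in these differences was not tested.

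AY036118 and Gm26917 are non-coding RNAs annotated within the pre-ribosomal RNA locus on chromosome 17. AY036118 (chr17:39847113-39848035 in GRCm38) was at 82.6, 51.2 and 67.0 CPM in saline F1, FP1 and RP3 and at 445, 414 and 469 in PCL. Its level was nearly flat across the PCL clusters, from 348 to 606 CPM over all 8. In saline it had no UMI in F2 and RP1, where 3 UMIs stood for 339 and 98.0 CPM. Over the other saline clusters it ran from 48.4 to 106 CPM. Gm26917 was 2.71-fold, 3.04-fold and 2.45-fold higher. By contrast, most of the 31 genes kept a cluster pattern inside the PCL library. The level in RP3 was under 50% of that in FP1 for 17 of them, among them Arg1 (4.79% of the FP1 level), Mmp12 (6.52%), Cd9 (7.09%), Pdpn (12.9%) and Spp1 (15.1%). It was at or above the FP1 level for 7, among them Hmox1, AY036118, S100a8 and S100a9. FP1 gave 6522238 of the 11006118 PCL UMIs, and the part of its free RNA in the RP3 levels was not tested.

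The shared set depended in part on single cells, on cluster membership and on the weight given to each cell. Without the cell with the most UMIs of each gene, 28 of the 31 stayed past 2-fold in all 3 clusters, and Pdpn, Rgcc and Erdr1 did not reach the minimum level or the ratio. With only those cells whose cluster the UBM profiles also gave, 21 of the 31 remained among 29 genes, and S100a6, Prdx1, Pdpn, Clec4d, Slc7a8, Rgcc, Mmp12, Anxa2, Erdr1 and Gstp1 left the set. When each cell was counted alike, 25 of the 31 remained. The lectin receptors Clec4n and Clec4d then left the set, as did Rgcc, Gm26917, Erdr1 and Gda.

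The 5 genes lower in all 3 clusters were Retnla, Fcrls, Btg2, Nfkbiz and H2-DMb1. Retnla encodes RELM-alpha, a secreted product of interleukin-4-stimulated macrophages. It was at 2805 CPM in saline F1 and 4.51 in PCL F1, 73.7 and 2.91 in FP1, and 5246 and 190 in RP3, and every PCL value was below the saline value. The saline level exceeded the PCL level by 621-fold (362 to 1171), 25.3-fold (14.1 to 46.7) and 27.7-fold (22.8 to 33.9). In the UBM library Retnla stood at 10176, 3779 and 23642 CPM, so PCL was the lowest of the 3 libraries in each cluster. Fcrls, an Fc-receptor-like gene of resident macrophages, was at 302 and 56.3 CPM in F1, 104 and 19.8 in FP1, and 350 and 126 in RP3. Btg2, an antiproliferative early-response gene, was 2.19-fold, 2.25-fold and 3.44-fold lower. Nfkbiz, a nuclear regulator of NF-kB, was 2.31-fold lower in each. H2-DMb1, which helps load peptide on class II molecules, was at 880 and 423 CPM in F1, 246 and 78.7 in FP1, and 227 and 72.4 in RP3. Retnla and Nfkbiz did not stay in this set without the highest cell of each gene, which left 3 genes. None of the 5 stayed when only cells matching the UBM profiles were kept.

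Gene lists were counted at 1.5-fold, which 14.7% of all genes passed upward in F1, 8.76% in FP1 and 16.4% in RP3, and 8.47%, 6.15% and 12% downward. Of the hypoxia and glycolysis genes, 14 of 20 compared were higher in F1, 22 of 25 in FP1 and 12 of 15 in RP3, with 0, 0 and 1 lower. Their median log2 ratio was 1.00, 0.93 and 1.09, and over all 27 members in the table, low ones included, 1.01, 0.90 and 1.07. Pgk1, phosphoglycerate kinase, was at 8.54 (3 UMIs) and 74.0 CPM in F1, and 14.3 and 142 in FP1. In RP3 it had no saline UMI and 20.7 CPM in PCL, under the minimum level. Pkm, pyruvate kinase, was at 350 and 750 CPM in F1, 598 and 1121 in FP1, and 100.5 and 333 in RP3. Bnip3, a mitochondrial receptor for mitophagy, was 5.71-fold (2.59 to 15.7) higher in F1 and 4.11-fold (2.79 to 6.31) in FP1. In RP3 its interval of 0.894 to 4.92 included 1. Egln3, a hypoxia-induced prolyl hydroxylase, had 1 saline UMI in FP1 and 49.1 CPM in PCL FP1. Hk2, which encodes hexokinase 2, was lower in RP3 at 119 and 58.6 CPM, while in FP1 it was at 81.9 and 160 CPM.

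The promoters of 4 of these genes are shown because their members were among the highest of the list and hold the core of the hypoxia-response element. Each is a 60-base stretch upstream of the start site, 5′ to 3′ on the gene's strand, from the RefSeq table for GRCm38.p6. They begin 168 bases before the start for Pgk1, 60 for Slc16a3, 126 for Bnip3 and 247 for Egln3, and capitals mark ACGTG or its complement CACGT.
Pgk1: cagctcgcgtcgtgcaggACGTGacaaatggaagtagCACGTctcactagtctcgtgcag
Slc16a3: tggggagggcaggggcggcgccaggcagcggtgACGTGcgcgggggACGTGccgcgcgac
Bnip3: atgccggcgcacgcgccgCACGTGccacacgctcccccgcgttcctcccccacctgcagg
Egln3: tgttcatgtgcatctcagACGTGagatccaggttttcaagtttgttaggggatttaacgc

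The stretches lie at chrX:106186932-106186991 on the plus strand, chr11:120949007-120949066 on the plus strand, chr7:138909573-138909632 on the minus strand and chr12:54204062-54204121 on the minus strand. ACGTG was searched on both strands of 300-base promoters, and overlapping matches on opposite strands, as in Bnip3, count separately. It was found in 12 of the 22 hypoxia and glycolysis genes that had an entry, of 25 looked for, and in 19.7% of all 27025 promoters. These letters describe the window and do not show binding.

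Of the S100 genes, 6 of 8 compared were higher in F1, FP1 and RP3 alike, with medians of 1.27, 1.28 and 1.51 (1.15, 0.92 and 1.38 over all 10 members), and 2 of the 6 are the neutrophil genes above. Of the Nrf2 antioxidant genes, 7 of 14 were higher in F1, 11 of 16 in FP1 and 5 of 13 in RP3, and none was lower. Gclm, a subunit of the glutathione-synthesising ligase, was at 34.2 and 59.4 CPM in F1, 73.7 and 158 in FP1, and 14.9 and 58.6 in RP3. Of the matrix and fibrosis factors, 7 of 11, 8 of 15 and 5 of 11 were higher and 2, 2 and 0 lower. The median was 0.92, 0.86 and 0.49 over the compared members and 0.17, 0.22 and 0.46 over all 24 in the table. The 2 lower ones were Timp2, a protease inhibitor, at 364 and 205 CPM in F1 and 473 and 260 in FP1, and Gpnmb, a lysosomal glycoprotein, at 54.1 and 22.2 in F1 and 774 and 237 in FP1. Fn1, fibronectin, was at 410 and 651 CPM in F1, 643 and 2453 in FP1, and 33.5 and 252 in RP3. Vcan, the proteoglycan versican, had 3 and 4 saline UMIs in F1 and FP1 and stood at 158 and 105 CPM in PCL, with ratios of 18.5 (6.29 to 90.0) and 12.9 (5.01 to 47.4). Tgfb1, the fibrosis-associated cytokine gene, was within 1.5-fold in each cluster, at 296 and 231 CPM, 227 and 218, and 182 and 146. Of the giant-cell and fusion genes, 5 of 13 were higher in F1, 8 of 17 in FP1 and 4 of 14 in RP3. In the same order 1, 2 and 2 were lower, and the medians were 0.28, 0.16 and 0.37. Among them Cd9 was higher in each cluster, and Cd81, another tetraspanin, was lower in each, with log2 ratios of -1.63, -1.71 and -0.75.

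Of the monocyte markers, which count Fn1, Vcan and Plac8, 9 of 10 were higher in F1, 6 of 9 in FP1 and 3 of 5 in RP3, and 0, 0 and 1 lower. Their medians were 1.26, 1.19 and 1.10, and 1.18, 1.17 and 1.10 over all 11 members. Their summed level was 2335 and 4803 CPM in F1, 1308 and 3521 in FP1, and 2249 and 2572 in RP3. Ccr2, the receptor that brings monocytes into tissue, was at 549.5 and 666 CPM in F1, 221 and 157 in FP1, and 294 and 165 in RP3. The part of newly arrived monocytes in the list changes was not tested.

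Of the class II antigen-presentation genes, 4 of 9 were lower in F1, 6 of 8 in FP1 and 7 of 9 in RP3, and the one that was higher, in RP3, was Ctss, a class II-processing protease, at 1456 and 2347 CPM. The medians were -0.41, -1.44 and -1.26 over the compared members and -0.39, -0.89 and -0.83 over all 14. H2-Aa, a class II chain, was at 8092 and 6244 CPM in F1, 3151 and 1031 in FP1, and 2707 and 1034 in RP3. Cd74, the invariant chain, was at 24351 and 19501 CPM in F1, 9074 and 3546 in FP1, and 6247 and 2380 in RP3. The log2 ratio was -0.32 in F1 and -1.35 and -1.39 in the others, and the counting intervals of F1 do not meet those of FP1 or RP3. C1qa, C1qb and C1qc, the complement C1q chains, were lower in F1 by 2.09-fold, 1.84-fold and 2.62-fold and in FP1 by 2.32-fold, 2.13-fold and 2.45-fold. In RP3 they were lower by 1.16-fold, 1.08-fold and 1.20-fold.

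**Figure D2:**
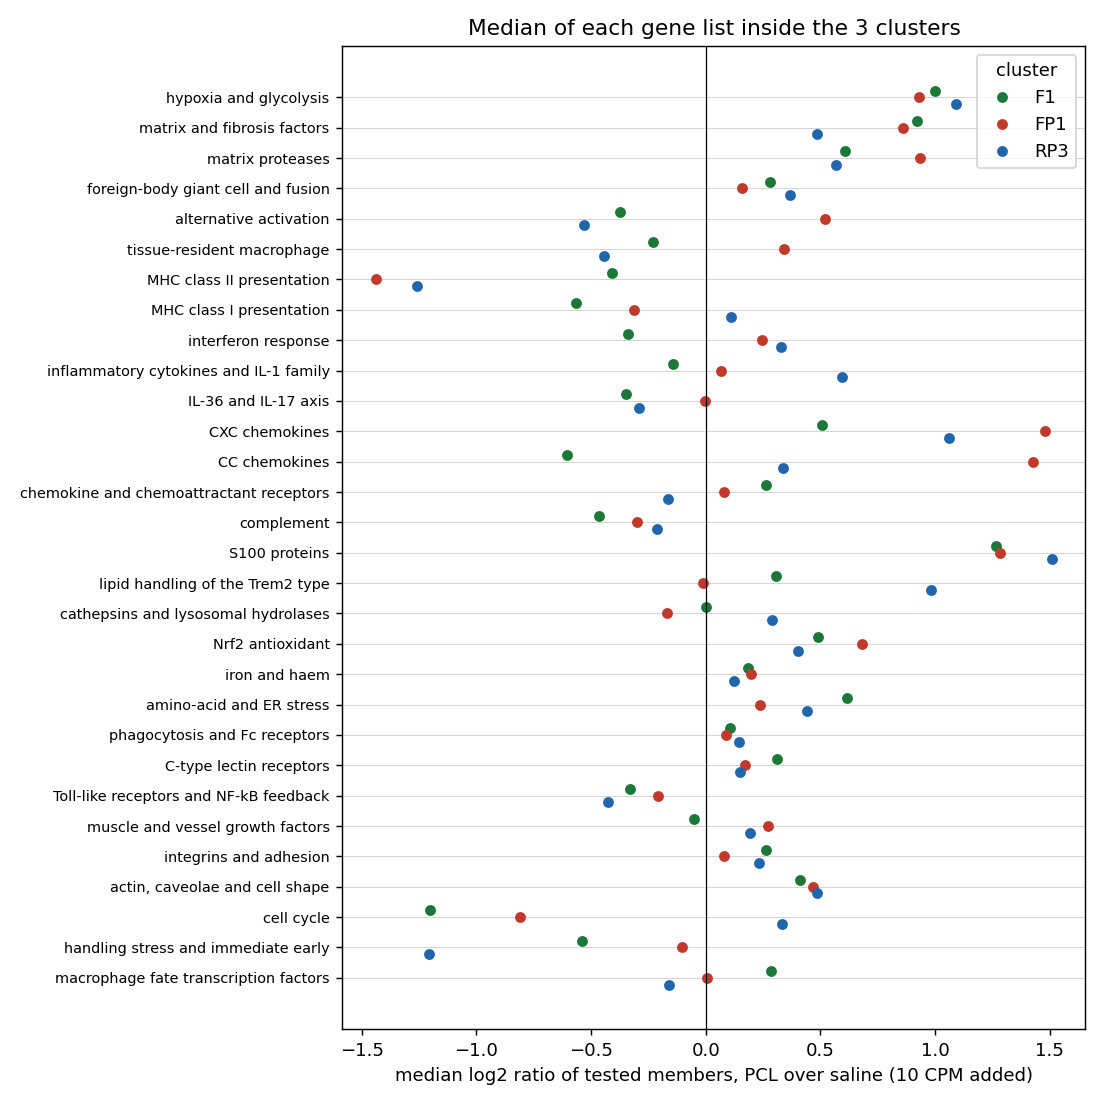
Median log2 ratio of PCL over saline for the compared members of 30 gene lists in F1 (green), FP1 (red) and RP3 (blue), with 10 CPM added. Hypoxia and glycolysis and the S100 proteins lie to the right in all 3 clusters, class II presentation lies to the left in all 3, and CC chemokines and the cell cycle split between clusters.

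Genes that passed 2-fold in 1 cluster and stayed within 0.32 on the log2 scale in both others numbered 21 in F1 (0.594%), 7 in FP1 (0.198%) and 48 in RP3 (1.36%). Of these, 14 were higher and 7 lower in F1, 7 higher and 0 lower in FP1, and 32 higher and 16 lower in RP3. The rule is one of size. The counting interval of the ratio lay apart from those of both other clusters for 7, 5 and 12 of them. The genes were picked by these same ratios, so such gaps are no separate check. The share with such a gap over all compared genes was not counted. The median saline count in the cluster concerned was 12 UMIs for the F1 genes, 32 for the FP1 genes and 11.5 for the RP3 genes.

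Among the genes lower in F1 alone, Ccl12, a monocyte-attracting chemokine gene, was at 1461 and 488 CPM in F1, 49.1 and 51.5 in FP1, and 551 and 594 in RP3. Its FP1 log2 ratio was 0.62 without the highest cells, so it then left the rule. H2-Q7, a class Ib histocompatibility gene, was 2.48-fold lower in F1, and its ratio was 0.803 (0.562 to 1.19) in FP1 and 1.09 (0.676 to 1.79) in RP3. Agtrap, an angiotensin-receptor-associated protein, was 3.23-fold lower in F1. Among the higher ones were Lrrc8d, a volume-regulated anion channel subunit, with 2 saline UMIs (5.69 CPM) and 45.1 CPM in PCL, and Gng12, a G-protein subunit, at 34.2 and 93.1 CPM. Rnft1, Smim4 and Agpat5 were also higher in F1, from 7 to 10 saline UMIs each.

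The median of the interferon-response list differed in direction between clusters. In F1, 10 of 32 genes were lower and 4 higher, with a median of -0.34. In FP1, 2 of 16 were lower and 5 higher, with a median of 0.25, and in RP3, 2 of 26 and 10, with a median of 0.33. Summed over all 32 members, the level was 15689 and 16331 CPM in F1, 4592 and 5245 in FP1, and 12788 and 17054.5 in RP3. The sum was thus higher in PCL in each cluster. Gbp2, a guanylate-binding GTPase, was at 168 and 35.8 CPM in F1, and Irf1, a transcription factor of interferon signalling, at 128 and 30.6. Irf1 was also lower in RP3, at 290 and 46.5 CPM. Cxcl9, a T-cell chemokine gene, was at 62.6 and 1.74 CPM in F1 and 96.2 and 2.76 in FP1, but 59% and 60% of its saline UMIs came from 1 cell in each cluster. Ifitm1, a membrane restriction factor, went the other way, from 2 saline UMIs in F1 to 74.0 CPM, with an interval of the ratio from 3.55 to 108. Isg15, a ubiquitin-like modifier, had a ratio of 1.07 (0.910 to 1.26) in F1, 1.76 (1.11 to 2.95) in FP1 and 2.18 (1.44 to 3.41) in RP3. Of the class I presentation genes, 7 of 15 were lower in F1, 0 of 14 in FP1 and 0 of 15 in RP3, with 2 higher in RP3.

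The promoter stretches of 3 interferon genes that were lower in F1 are shown for the motifs of interferon factors. Capitals mark the gamma-activated site, TTCNNNGAA, in Irf1 and the interferon-stimulated response element, searched as TTTC, any 2 bases and TTTC again, in Gbp2 and Gbp3.
Irf1: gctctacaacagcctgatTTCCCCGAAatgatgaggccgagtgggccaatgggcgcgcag
Gbp2: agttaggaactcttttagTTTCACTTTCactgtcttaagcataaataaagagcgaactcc
Gbp3: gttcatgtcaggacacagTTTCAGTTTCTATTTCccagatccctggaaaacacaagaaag

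They lie at chr11:53769906-53769965, chr3:142620586-142620645 and chr3:142559981-142560040, all on the plus strand of GRCm38.p6, and the Gbp3 run holds 2 overlapping matches. Searched on both strands of the 300 bases, either motif was present for 6 of the 9 interferon genes that were lower in F1 and had an entry, of 10 looked for. It was present for 11 of the 15 other compared interferon genes with an entry, of 22 looked for, and for 11.4% of all promoters.

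Among the genes higher in FP1 alone, the highest ratio was that of Ccl2, the main monocyte chemoattractant. It was at 141 and 473 CPM in FP1, a ratio of 3.35 (2.64 to 4.31), at 1421 and 1362 in F1, and at 2264 and 2161 in RP3. In both libraries its level in FP1 was the lowest of the 3 clusters. Rbpj, the nuclear effector of Notch signals, was at 79.8 and 237 CPM in FP1, 185 and 215 in F1, and 283 and 295 in RP3. Myadm, a membrane-raft protein, Eps8, an actin-capping protein, and Dync1h1, the dynein heavy chain, were 2.79-fold, 2.99-fold and 2.51-fold higher in FP1. Of the CC chemokine genes, 5 of 9 were higher and 1 lower in FP1, 4 of 10 were higher and 5 lower in F1, and 4 of 9 were higher and 1 lower in RP3. The medians were 1.43, -0.61 and 0.34, and over all 13 members they were 0.06, -1.15 and 0.34, so the FP1 median rests on which members reached the minimum level. Ccl7, a monocyte chemoattractant, was 3.47-fold higher in FP1 and 1.78-fold in F1. Ccl3 and Ccl4, chemokines of acute inflammation, were 2.36-fold and 2.38-fold lower in F1, where 1 cell gave 35% and 39% of the saline UMIs. Ccl24, eotaxin-2, had 12.3 CPM (6 UMIs) in saline FP1 and 666 in PCL FP1, a ratio of 54.2 (24.9 to 148), and 62.6 and 251 in F1. In RP3 it was lower, at 648 and 331 CPM, which fell short of 2-fold. Cav1, an FP1 marker, was 6.95-fold (4.13 to 12.7) higher in FP1, and in F1 and RP3 it had 2 and 1 saline UMIs.

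Among the genes higher in RP3 alone, the highest ratio after adding 10 CPM was that of Il1b, which encodes interleukin-1 beta. It was at 37.2 CPM (10 UMIs, 50% of them in 1 cell) in saline and 145 in PCL, a ratio of 3.89 (2.01 to 8.40). In F1 it was at 1204 and 1142 CPM and in FP1 at 418 and 434, and so RP3 had the least Il1b of the 3 compared clusters in both libraries. Alg5, Siva1, Gemin7 and Rpl13-ps3, a ribosomal protein pseudogene whose reads may be shared with its parent gene, were also higher in RP3, from 3 to 6 saline UMIs each. Fcgr4, an activating IgG receptor, was at 18.6 and 177 CPM in RP3, a ratio of 9.53 (3.96 to 29.98), and its ratio was 0.741 (0.601 to 0.921) in F1 and 0.616 (0.443 to 0.878) in FP1. Il18 was at 26.1 and 99.9 CPM in RP3, and its log2 ratio was 0.39 in F1 and -0.35 in FP1. Fcgr4 and Il18 thus fell outside the limit of 0.32 that the rule sets for the other clusters. Of the lipid-handling genes of the Trem2 type, 8 of 15 were higher and 0 lower in RP3, with a median of 0.98. In F1, 6 of 16 were higher and 2 lower, with a median of 0.30. In FP1, 6 of 18 were higher and 4 lower, with a median of -0.01. The summed level of all 20 members was 22207 and 17226 CPM in F1, 26802 and 21989.5 in FP1, and 33848.5 and 26924 in RP3. Lgals3, galectin-3, was at 313 and 1347 CPM in RP3 and at 5264 and 5324 in FP1. Lpl, lipoprotein lipase, was at 26.1 and 164 CPM in RP3, and Fabp5, a fatty-acid carrier, at 93.1 and 377, whereas Fabp5 was 1.68-fold lower in FP1. In PCL FP1 Lpl stood at 1427 CPM and Fabp5 at 1084, and the part of free RNA from FP1 in the RP3 levels was not tested.

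Among the genes lower in RP3 alone, Dnajb1, a heat-shock co-chaperone, was at 253 and 65.5 CPM, Eif4b, a translation initiation factor, at 179 and 53.4, and Il6ra, the interleukin-6 receptor, at 313 and 124. Mboat7, a phospholipid acyltransferase, was at 52.1 and 17.2 CPM, and Tpm1, a tropomyosin, at 74.5 and 27.6. The log2 ratio of Tpm1 was -0.76 without the highest cells, under 2-fold. Dnajb1 belongs to the list of handling-stress and immediate-early genes, of which 19 of 22 were lower and 0 higher in RP3, with a median of -1.21. In F1, 10 of 22 were lower and 1 higher, with a median of -0.54, and in FP1, 5 and 3, with a median of -0.10 that became 0.04 without the highest cells. Jun, a component of the AP-1 transcription factor, was at 854 and 195 CPM in F1, 237 and 152 in FP1, and 2129 and 460 in RP3. Egr1, another early-response factor, was at 390 and 131, 71.7 and 39.1, and 1969 and 639 CPM. These genes respond to tissue dissociation, so handling and treatment cannot be told apart with 1 library on each side. RP3 also had less Mgl2, a galactose-type lectin of resident macrophages, at 506 and 58.6 CPM, and less Mmp9, a gelatinase, at 78.2 and 8.62 CPM. Mgl2 was lower in F1 too, at 271 and 35.8 CPM.

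**Figure D3:**
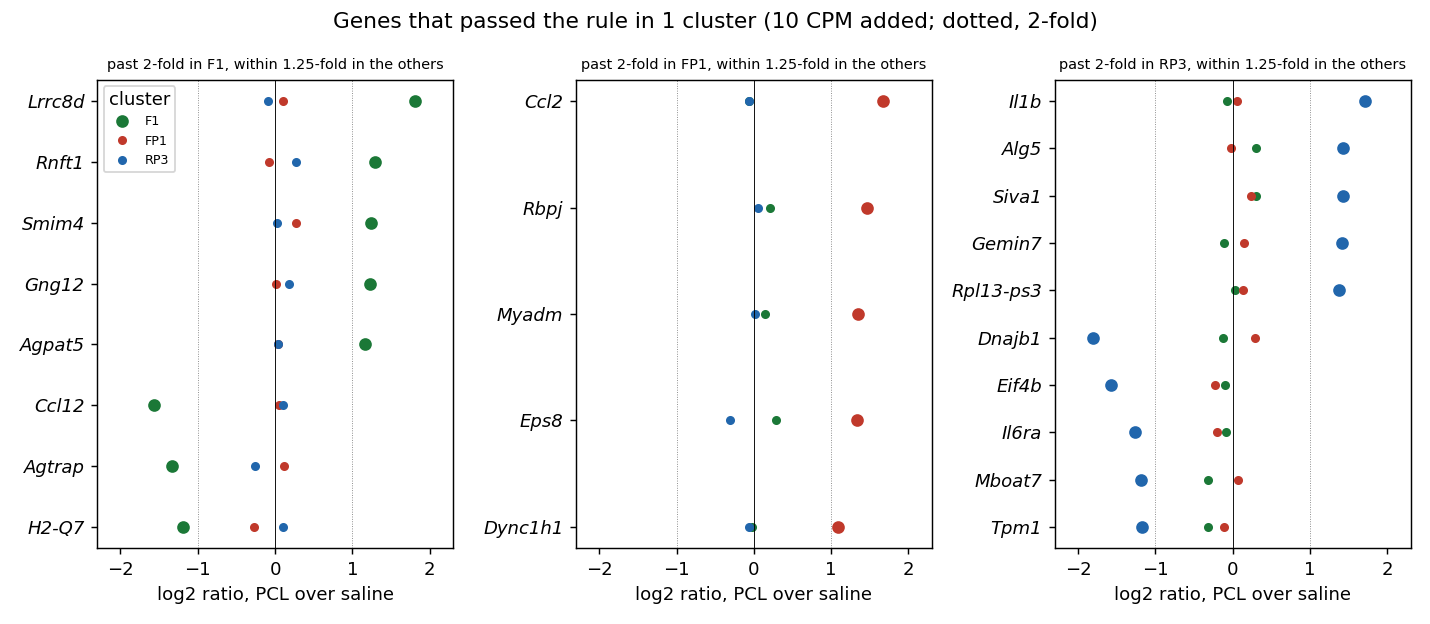
Log2 ratio of PCL over saline in F1 (green), FP1 (red) and RP3 (blue) for genes past 2-fold in 1 cluster (large points) and within 0.32 of 0 in the others (small points), up to 5 in each direction. Ccl2 stands at 1.67 in FP1 and near 0 in F1 and RP3, and FP1 has no gene on the lower side.

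Only Stmn1, which encodes the microtubule-destabilising protein stathmin of dividing cells, was past 2-fold in opposite directions (1 of 3535 genes, 0.0283%). It was at 122 and 27.8 CPM in F1 and 207 and 45.1 in FP1, lower by 4.41-fold (2.97 to 6.46) and 4.59-fold (3.62 to 5.77). In RP3 it was at 22.3 (6 UMIs) and 159 CPM, higher by 7.10-fold (3.14 to 19.8). No single cell held more than 35% of its UMIs in any of the 6 sets, and the directions were the same without the highest cells. Of the cell-cycle genes, 7 of 12 were lower and 0 higher in F1 and in FP1, with medians of -1.20 and -0.81 (-0.79 and -0.69 over all 26 members). Without the highest cell of each gene, the medians over the compared members were -0.89 and -0.44. Top2a, the DNA topoisomerase of dividing cells, was at 56.9 and 7.29 CPM in F1, and Birc5, survivin, at 59.8 and 6.95 in F1 and 81.9 and 11.5 in FP1, with 52% and 50% of the saline UMIs in 1 cell. In RP3, 2 of 7 were higher and 1 lower, and 11 of the 26 in the table had no saline UMI there.

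**Figure D4:**
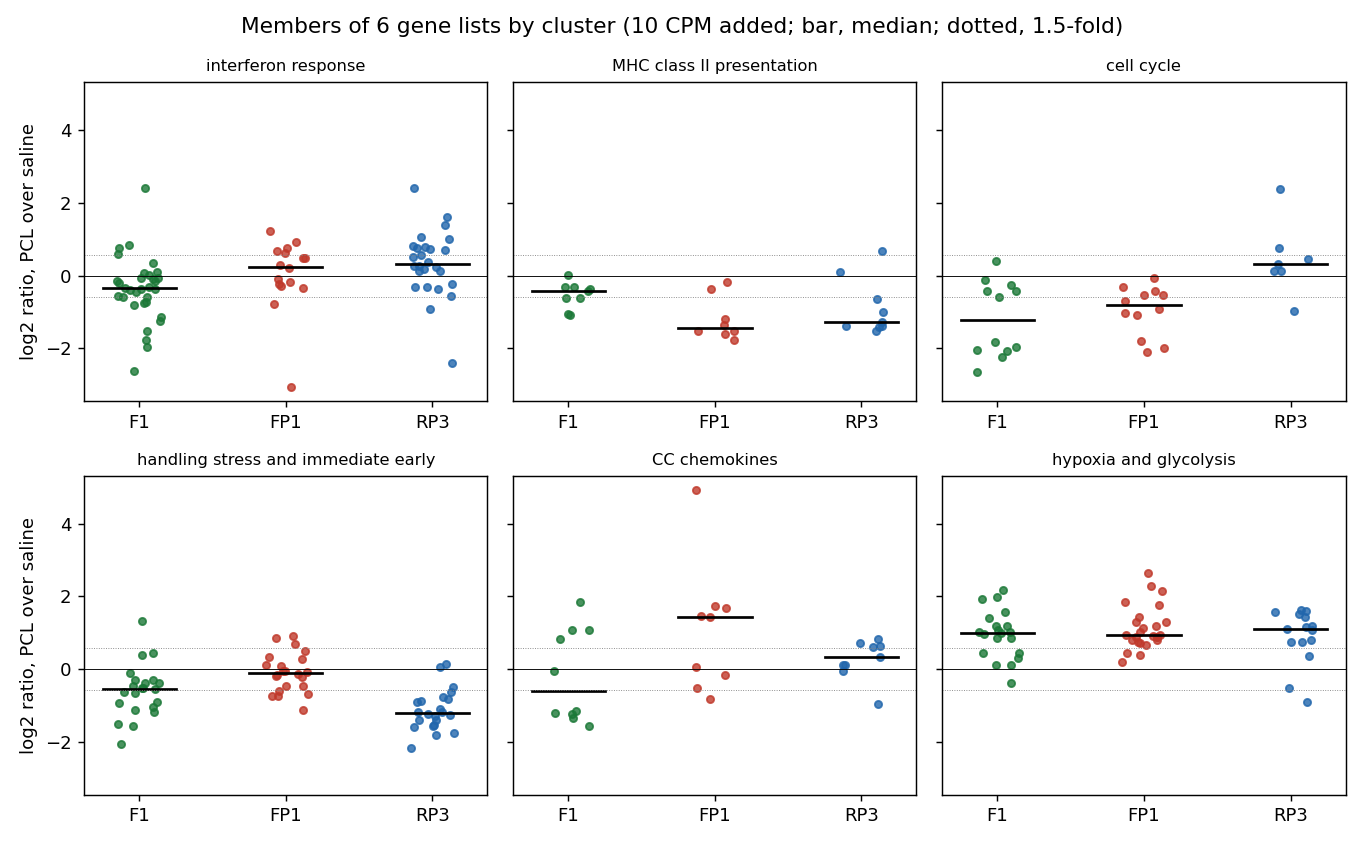
Log2 ratio of PCL over saline for each compared member of 6 gene lists in F1, FP1 and RP3, with a bar at the median and dotted lines at 1.5-fold. The interferon members reach from -2.63 to 2.42 in F1, the immediate-early members lie below 0 in RP3 except 2, and the highest CC chemokine value is Ccl24 in FP1 at 4.92.

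Over all cells, 127 of 4374 genes were higher in PCL (2.9%) and 105 lower (2.4%). Each log2 ratio was split into the part that the saline cluster levels give when weighted by the PCL cluster mix, and the part that remains inside clusters. The mix gave a median of 16.0% of the log2 ratio for the higher genes and 24.5% for the lower ones. It gave over 50% for 6 higher genes (0.137%) and 19 lower genes (0.434%). Of the 31 genes higher in all 3 clusters, 30 were also higher over all cells, and S100a8 alone was a mix gene. For Arg1 the parts were 0.80 from the mix and 3.88 inside, for Spp1 0.66 and 2.18, for Retnla -1.09 and -5.25, and for Hmox1 -0.37 and 2.93.

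S100a8 went from 164 to 927 CPM over all cells, and the mix alone gave 760. F2 made up 2.57% of PCL cells and 0.880% of saline cells. The saline F2 level in this estimate rests on 3 cells. Slpi, a protease inhibitor of neutrophils, and Hp, haptoglobin, had mix parts of 1.74 and 0.94 and inside parts of -0.07 and 0.29. Cstb, a cathepsin inhibitor, and Rhoc, a small GTPase, had mix parts of 0.65 and 0.60 and inside parts of 0.50 and 0.41. On the lower side, Cd209a, a lectin of monocyte-derived dendritic cells, went from 92.7 to 6.54 CPM with a mix part of -2.204 and an inside part of -0.43. The muscle-fibre genes Acta1, Myl1, Mylpf and Tnnt3 went from 153, 114, 140 and 79.4 CPM to 6.996, 3.998, 7.18 and 2.73 CPM, with mix parts from -1.96 to -2.07. Inside the compared clusters the summed level of 9 muscle-fibre genes was 88.3 and 13.2 CPM in F1, 40.9 and 17.5 in FP1, and 313 and 81.0 in RP3. Most Acta1 UMIs of the saline library, 242 of 288, were in R3, at 984 CPM, the cluster that held 10.9% of saline cells and 0.913% of PCL cells.

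**Figure D5:**
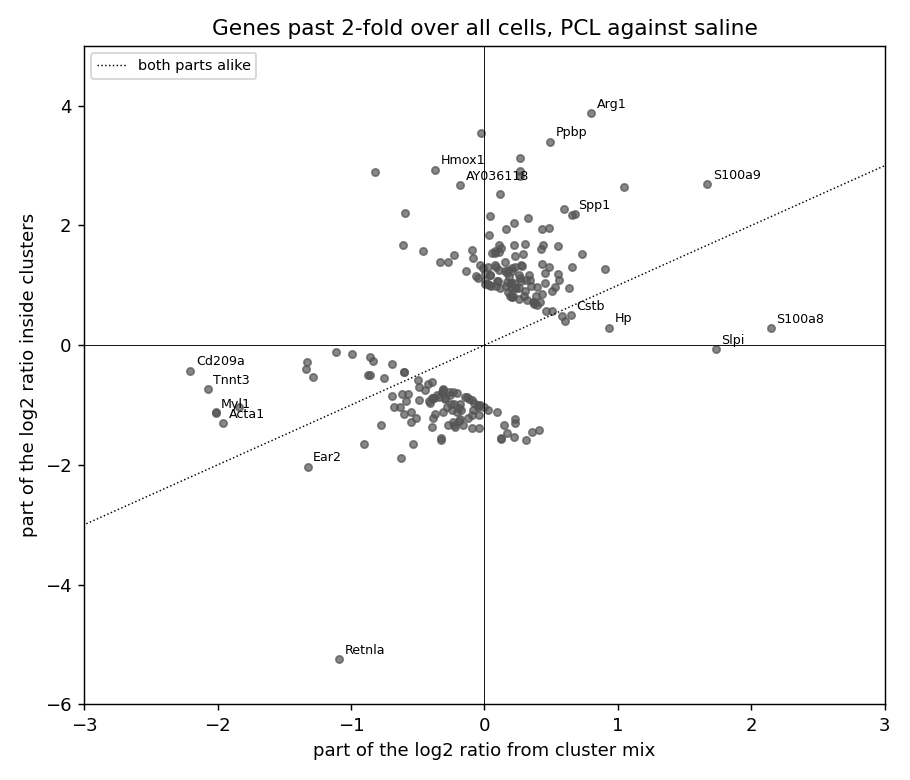
For the 127 higher and 105 lower genes over all cells, the part of the log2 ratio from cluster mix (horizontal) and the part inside clusters (vertical), with a dotted line where both are alike. Most points lie near the vertical axis, Slpi and S100a8 lie far to the right near 0, and Cd209a and the muscle genes lie to the left.

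Il1f9 and Il23a, from the list for the interleukin-36 and interleukin-17 axis, were at or near the limit of these data. Il1f9, which encodes interleukin-36 gamma, had no saline UMI in F1, FP1 or RP3 and stood at 1.39, 2.61 and 0 CPM in PCL, all under the 3-UMI saline limits. Il23a, a subunit of the interleukin-23 cytokine that feeds interleukin-17 responses, had no saline UMI and at most 0.347 CPM in PCL. A difference in either gene was not detectable at the saline depth.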

How the data were processed

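Sorted macrophages of 3 libraries, 1 for each condition, were profiled with 10x Chromium 3' version 2 chemistry, per the labels' protocols. The authors deposited raw UMI counts per gene and cell with a cluster and a condition for each cell, and pooled all 3 conditions for clustering with Seurat, per the labels. The submitters' processing notes name Cell Ranger and the build hg38, although the genes carry mouse symbols. Cells marked PBS and Synthetic in the deposited annotation were taken as the saline and PCL libraries. No deposited column was left out. No doublet caller was run.

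UMIs were summed per library and cluster and scaled to a total of 1000000 (CPM). Exact Poisson and conditional binomial 95% intervals cover counting error only, and for a count of 0 a limit of 3 UMIs was used. Ratios to that limit leave out the counting error of PCL. Genes with a mean of 25 CPM were compared, with 10 CPM added, at 2-fold for genes and 1.5-fold for lists. PCL over saline was split into mix and inside parts by weighting saline cluster levels with the PCL shares of UMIs. The script was tested on simulated data. Tools were Python 3.11.15, numpy 2.4.6, scipy 1.17.1, pandas 2.3.3, matplotlib 3.10.9 and, for an alternative scaling, edgeR 4.0.16 in R 4.3.3.

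The members and the 30 program and 17 marker lists were chosen with earlier results of these data known. Genes named are the 12 most extreme shared genes in each direction, the 5 most extreme of each cluster-restricted set, up to 6 opposite ones, mix genes with the 5 largest parts, the 3 highest and 3 lowest members of each list, and a few fixed genes. Mitochondrial and ribosomal protein genes were left out of the names but not of the counts of genes. Some genes that this rule selects are not reported here. Other names were chosen after their values were seen.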

Additional observations from a re-analysis of the deposited data

Results flagged for a closer look

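Stmn1, which encodes stathmin, had log2 ratios of PCL over saline of -1.81 in F1, -1.98 in FP1 and 2.38 in RP3, opposite directions under the same contrast. Each cluster holds 1 library a side, so the difference between clusters was not tested. The RP3 value rests on 6 saline UMIs.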

How the results depend on the processing

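No paired analysis was possible because each condition is 1 library. The balance of calls turned in some settings: without ribosomal protein genes and Malat1 in the total, 214 genes were higher and 222 lower in RP3, and 126 higher and 143 lower over all cells. With the UBM-matched cells, 143 were higher and 154 lower over all cells, and FP1 turned as given below. The immediate-early median in FP1 went from -0.10 to 0.04 without the highest cells. With 1 CPM added in place of 10, 252 genes were higher in F1, 327 higher and 262 lower in RP3, 8 lower in all 3 clusters, 33 restricted to F1, 14 to FP1, and 7 opposite. With no minimum level, 322 were higher and 194 lower in F1, 202 and 120 in FP1, 508 and 325 in RP3, 49 and 8 in all 3 clusters, 70, 32 and 235 were restricted to F1, FP1 and RP3, 17 were opposite, 162 were lower over all cells, and 48 were lower mix genes. With only cells whose cluster the UBM profiles also gave, 257 were higher in F1, 271 higher and 289 lower in FP1, 0 lower in all 3, 72 restricted to FP1 and 10 opposite, with 43 higher and 87 lower mix genes. Without the highest cell of each gene, 62 were lower in F1, 48 lower in FP1, 3 lower in all 3 and 3 opposite. With PCL thinned to the saline UMIs, 115 were lower in FP1, 17 restricted to FP1 and 5 opposite. Without ribosomal protein genes and Malat1 in the total, 8 were lower in all 3 and 4 opposite. With each cell counted alike, 38 were restricted to F1 and 2 opposite, with 10 higher and 40 lower mix genes. Without cells over 10% mitochondrial UMIs, 2 were opposite. Higher mix genes numbered 3 with PCL levels weighted by the saline mix and 2 without F2. The cause of these shifts was not tested. The count of genes higher in all 3 clusters was 28 to 36 in the other 10 settings. Saline depth, at 64 to 72 cells a cluster, limits every ratio.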
